A study of Mus musculus with 6 samples.

Results

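The interferon-induced genes and STAT factors described here, in ribosome-associated RNA of the medial prefrontal cortex (mPFC), are Ifit1, Ifit2, Ifit3, Isg15, Usp18, Stat2, Irf7, Irf9 and Bst2. They were taken by their gene names and make up 9 of the 47729 gene IDs and 29 of the 115220 transcripts in the deposited table. All mice were adult males of 2.5 to 3 months from the D2Cre/LSL-Flag-Cas9/RiboTag line (strain label C57BL/6), so Cas9 and a hemagglutinin-tagged Rpl22 ribosomal subunit were present in D2 cells of both groups. The Cre came from a bacterial artificial chromosome transgene for the dopamine D2 receptor, the Cas9 from a knockin at Rosa26 and the tagged Rpl22 from the RiboTag knockin. The 3 Ctrl libraries came from mice given AAV GFP, and the 3 Gsk3sKO in mPFC D2 libraries (Gsk3sKO below) from mice given AAV Gsk3 sgRNA/GFP, a virus with a guide RNA against Gsk3b. Tissue was collected 3 weeks after injection, and the tagged ribosomes were pulled down with their RNA. The sources used here do not say whether a library is 1 mouse or a pool, so every p-value rests on variation between libraries that may be no more than technical.

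Type I interferons bind a receptor made of IFNAR1 and IFNAR2, whose associated kinases JAK1 and TYK2 phosphorylate STAT proteins, STAT2 among them. STAT2 joins IRF9 in the complex ISGF3, which enters the nucleus and binds interferon-stimulated response elements (ISREs) near the start sites of its target genes. Many of the targets are antiviral effectors, and some, among them Stat2, Irf9, Irf7 and Usp18, feed back on the pathway itself. In the brain, microglia, endothelial cells, astrocytes and neurons can all respond to interferon.

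The ISRE letters upstream of these genes are shown because ISGF3 binds such elements and because these letters are independent of the measured levels. Promoter windows of RefSeq (GRCm38.p6) from 250 bases before to 50 bases after the start site were searched on both strands for an ISRE core, here GAAA, any 2 bases and GAAA again. Of the members, 8 had an entry, with 10 windows in all, and Usp18 had none. The core was found in 5 of the 10 windows, belonging to 5 genes, against 3.44% of 32851 windows of all genes. In the lines that follow, each sequence is written 5′ to 3′ on the strand of its gene with 10 flanking bases, and capitals mark the core, which reads with TTTC in place of GAAA where it lies on the opposite strand.
Isg15, chr4:156200865-156200906, minus strand: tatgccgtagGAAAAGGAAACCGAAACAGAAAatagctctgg
Bst2, chr8:71537577-71537612, minus strand: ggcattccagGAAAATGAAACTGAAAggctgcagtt
Stat2, chr10:128270266-128270295, plus strand: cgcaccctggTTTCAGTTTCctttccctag
Ifit3, chr19:34583363-34583426, plus strand: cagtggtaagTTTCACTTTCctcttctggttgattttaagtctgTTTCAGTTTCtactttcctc
Ifit1, chr19:34640775-34640823, plus strand: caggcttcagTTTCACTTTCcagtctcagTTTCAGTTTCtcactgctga

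Isg15 carried 3 overlapping copies of the core from position -78 to -57 relative to its start site, and Bst2 carried 2 overlapping copies from -130 to -115. Ifit1 and Ifit3 each carried 2 separate copies, and Stat2 carried 1. No copy of these letters was in the windows of Irf7, Irf9 or Ifit2. The STAT core TTCNNNGAA, which overlaps the first ISRE copy in Bst2 by 3 bases, was found in 2 of the 10 windows, those of Bst2 and Ifit2, against 8.30% of all windows. A match of letters is a description of the window and not a measured binding site. Among other interferon-induced genes, from a list written for this work, the ISRE core was in 36 of 73 windows, or 49.3%.

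Levels are given in FPKM, which scales fragments to transcript length and to the size of the library and so allows genes of different length to be compared. Each gene total is the sum over the gene's transcripts. In Ctrl the order of the mean gene totals was Ifit3 at 9.44, Ifit2 at 9.11, Irf9 at 5.07, Ifit1 at 4.37, Usp18 at 3.53, Irf7 at 3.52, Stat2 at 3.33, Bst2 at 3.03 and Isg15 at 2.40 FPKM. The 3 Ctrl values of each gene overlapped those of the next gene in this order except between Ifit2 and Irf9. Some genes farther apart in the order were also separated, with the lowest Irf9 value (4.20) above the highest of Stat2 (3.62) and of Isg15 (3.87), and the lowest of Ifit1 (3.84) above the highest of Stat2. The average over the 6 libraries placed the members between the 12.4th percentile (Bst2) and the 53.2nd (Ifit2) of the 12874 gene totals that averaged at least 1 FPKM, a filter that all 9 members passed. Few reads stood behind the lower values, since 1 FPKM was worth about 17.8 to 34.2 reads of Isg15 and 18.6 to 35.8 reads of Bst2, depending on the library, and the lowest Bst2 value above 0 rests on about 5.70 reads.

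Gsk3sKO replicates 2 and 3 stood apart in their values of 0. Gene totals listed at 0 in 1 library although they averaged at least 2 FPKM in the others numbered 50, 15 and 18 in Ctrl, against 37, 106 and 111 in Gsk3sKO. The zeros of Isg15, Irf7 and Bst2 fall in the libraries with 106 and 111 such genes. A listed 0 can be a failed estimate as well as an absence of reads, which cannot be told apart in this table, and the differences of these 3 genes rest in part on such values. They are also the members that depended most on the pseudocount. Read depth, which could be estimated only approximately from the spacing of low values, was about 45.3, 31.9 and 23.5 M reads in Ctrl, against 41.3, 28.8 and 30.1 M in Gsk3sKO. The part of the missing values in the results for the members was not tested.

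Ctrl and Gsk3sKO were compared by limma on a log2(FPKM + 1) scale, one that understates the change of genes with low values, and a gene was called at an unadjusted 2-sided p under 0.05. Irf7 was the 1 member of 9 that was called, and it was lower in Gsk3sKO. Over all gene totals tested, 6.56% were called, and 5.20% were called with a lower level in Gsk3sKO. With Benjamini-Hochberg adjustment over the 12874 gene totals, limma put 0 of the 9 members at an adjusted p under 0.05, and the smallest adjusted p among them was 0.688. The 2-sided exact permutation test gave p = 0.1 for Irf7, the smallest that 3 libraries against 3 allow, and between 0.3 and 0.9 for the other 8. The fitted log2 difference (Gsk3sKO minus Ctrl) was negative for 8 of the 9 members, with a median of -0.52, while over all gene totals tested 58.9% were negative and the median was -0.06. In gene totals of the same level as the members, with means between 1.90 and 9.52 FPKM, the median was -0.09, and 61.4% of 5251 were negative. The median standard error was 0.40 for the members and 0.29 at that level, so the members varied more between libraries.

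**Figure D1:**
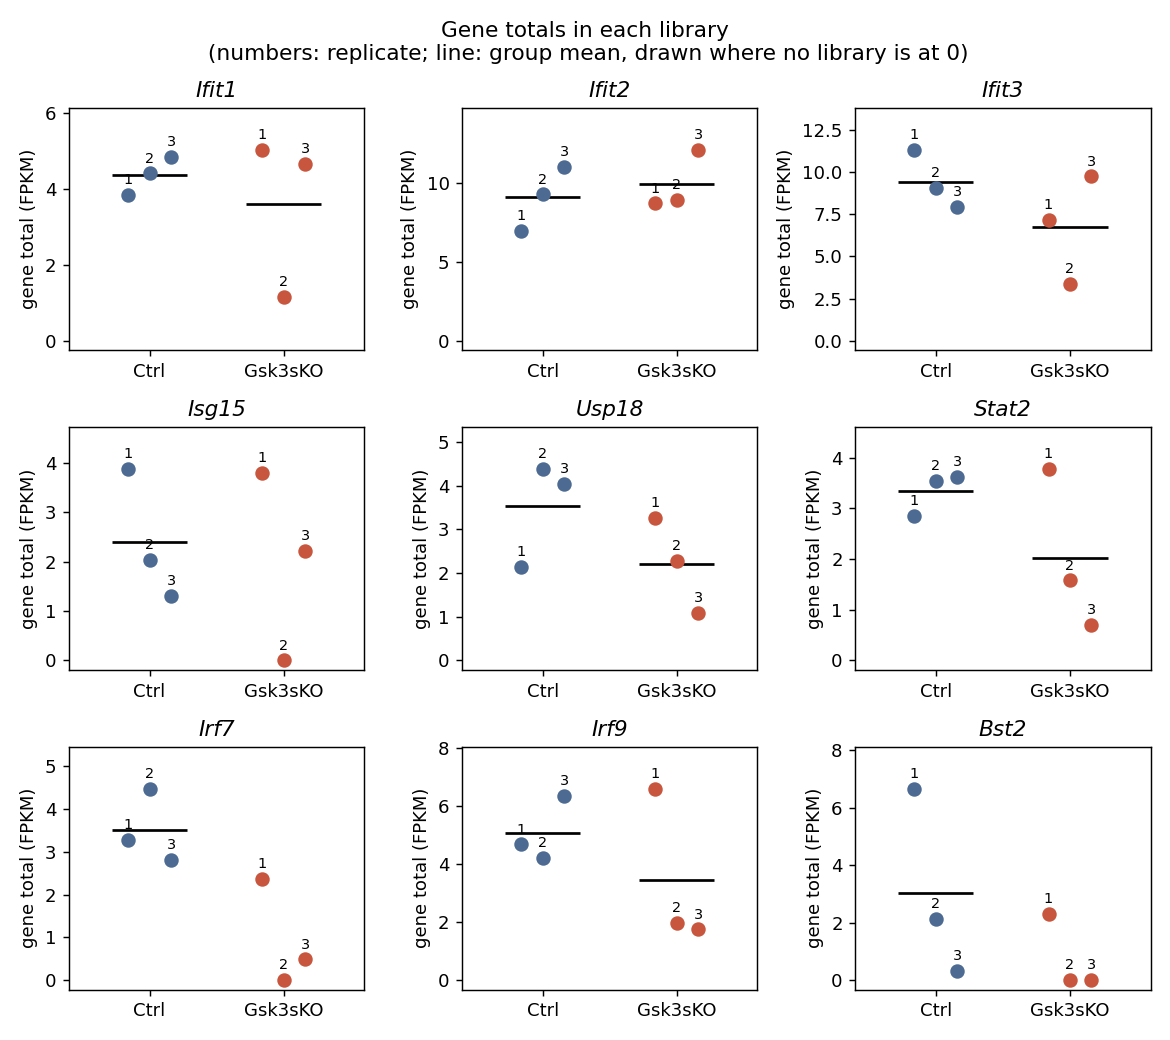
Gene total (FPKM, linear axis) of each of the 9 genes in the 3 Ctrl and 3 Gsk3sKO libraries, with the replicate number above each point and a line at the group mean where no library is at 0. Irf7 is the only one of the 9 whose groups do not overlap, and Gsk3sKO replicate 2 is at 0 for Isg15, Irf7 and Bst2.

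Among the members that transmit the interferon signal, Stat2 (ENSMUSG00000040033, chr10:128270559-128292849, plus strand, GENCODE M21 on GRCm38) encodes the STAT protein specific to the interferon pathway. Its gene total was 2.85, 3.53 and 3.62 FPKM over Ctrl replicates 1, 2 and 3, against 3.77, 1.58 and 0.695 FPKM over Gsk3sKO replicates 1, 2 and 3, the order kept throughout. Gsk3sKO replicate 1 was the highest of all 6 libraries and the other Gsk3sKO libraries were the lowest, so the groups overlapped. The log2 difference was -0.65 (standard error 0.39, 95% interval -1.54 to 0.24, adjusted p = 0.802). Irf9 (ENSMUSG00000002325, chr14:55603571-55610030, plus strand) encodes the DNA-binding partner of the STAT proteins in ISGF3. It stood at 4.67, 4.20 and 6.33 FPKM in Ctrl, against 6.59, 1.98 and 1.74 FPKM in Gsk3sKO, the same arrangement as Stat2, with Gsk3sKO replicate 1 at the top and replicates 2 and 3 at the bottom. The log2 difference was -0.60 (standard error 0.40, 95% interval -1.52 to 0.32, adjusted p = 0.824). Without Gsk3sKO replicate 1 both genes were called, at -1.05 for Stat2 and -1.07 for Irf9, while without Gsk3sKO replicate 3 the values were -0.30 and -0.34 and neither was called. Of the exon bases annotated for Irf9, 123 of 5386 are shared with Rnf31 on the same strand, where reads cannot be assigned to 1 gene.

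Irf7 (ENSMUSG00000025498, chr7:141262706-141266481, minus strand) encodes the transcription factor that amplifies the production of type I interferon. Its gene total was 3.28, 4.47 and 2.81 FPKM in Ctrl, against 2.38, 0 and 0.483 FPKM in Gsk3sKO. Every Gsk3sKO library was below every Ctrl library, and the gap between Gsk3sKO replicate 1 (2.38) and Ctrl replicate 3 (2.81) was small beside the spread within either group. Irf7 was the 1 member of 9 without overlap, and 8.30% of all gene totals tested were likewise lower in Gsk3sKO without overlap. The log2 difference was -1.39 (standard error 0.45, 95% interval -2.43 to -0.34, limma adjusted p = 0.688). With a pseudocount of 0.1 in place of 1 it was -2.76 and still called. The call was lost without Ctrl replicate 2 (-1.24) and in an ordinary linear model without moderated variances, and the adjusted p ranged from 0.211 to 0.973 over the alternatives. Phrf1, on the opposite strand, shares 45 of the 3776 exon bases of Irf7, and the strand setting of the authors' counting is not given in the sources used here.

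The IFIT proteins bind viral RNA and limit its translation, and their genes lie close together on chromosome 19. Ifit1 (ENSMUSG00000034459, chr19:34640871-34650009, plus strand) was at 3.84, 4.41 and 4.86 FPKM in Ctrl, against 5.04, 1.16 and 4.66 FPKM in Gsk3sKO. Only Gsk3sKO replicate 2 stood apart, below the narrow range that the other 5 libraries shared. The log2 difference was -0.35 (standard error 0.40, 95% interval -1.27 to 0.56, adjusted p = 0.903), and without Gsk3sKO replicate 2 it changed sign to 0.13. Ifit2 (ENSMUSG00000045932, chr19:34550694-34576419, plus strand) was at 6.98, 9.29 and 11.1 FPKM in Ctrl, against 8.72, 8.94 and 12.1 FPKM in Gsk3sKO. It was the 1 member with a positive log2 difference, 0.12 (standard error 0.23, 95% interval -0.40 to 0.63, adjusted p = 0.941), its groups overlapped throughout, and the sign turned without Ctrl replicate 1 (-0.041) or Gsk3sKO replicate 3 (-0.021).

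Ifit3 (ENSMUSG00000074896, chr19:34583531-34588731, plus strand) stood at 11.3, 9.06 and 7.92 FPKM in Ctrl, against 7.16, 3.36 and 9.74 FPKM in Gsk3sKO. Gsk3sKO replicate 2 was again the lowest library, while replicate 3 lay within the Ctrl range. The log2 difference was -0.51 (standard error 0.33, 95% interval -1.27 to 0.25, adjusted p = 0.817), and it was called without Gsk3sKO replicate 3 (-0.79) but was -0.14 without Gsk3sKO replicate 2. The value is uncertain because Ifit3 has a near copy, Ifit3b, in which 869 of its 1696 stretches of 50 bases (51.2%) also occur, so reads may have been divided between them. Ifit3b itself was at 7.06, 4.96 and 3.64 FPKM in Ctrl, against 5.20, 2.39 and 6.49 FPKM in Gsk3sKO, with the same highest and lowest libraries as Ifit3. For Ifit1 the share of such stretches found in other genes was 7.13%, nearly all of it in Ifit1bl2, and for Ifit2 it was 0.

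Isg15 encodes a ubiquitin-like protein that is attached to other proteins after interferon, and Usp18 encodes the protease that removes it and that also dampens signalling at IFNAR2. The Isg15 gene total (ENSMUSG00000035692, chr4:156199424-156200818, minus strand) was 3.87, 2.04 and 1.30 FPKM in Ctrl, against 3.80, 0 and 2.22 FPKM in Gsk3sKO. The spread within each group was wider than the difference between them, which was -0.38 on the log2 scale (standard error 0.58, 95% interval -1.71 to 0.95, adjusted p = 0.930) and became 0.28 without Gsk3sKO replicate 2, where Isg15 is listed at 0. The Usp18 gene total (ENSMUSG00000030107, chr6:121245906-121270917, plus strand) was 2.15, 4.38 and 4.05 FPKM in Ctrl, against 3.26, 2.28 and 1.08 FPKM in Gsk3sKO. Ctrl replicate 1 lay below Gsk3sKO replicates 1 and 2, so the groups overlapped, and the log2 difference was -0.52 (standard error 0.36, 95% interval -1.33 to 0.30, adjusted p = 0.829). With 1 library left out it ran from -0.76 to -0.24, the latter without Gsk3sKO replicate 3, and was never called. A long noncoding RNA on the opposite strand, Gm44148, shares 124 of the 2790 exon bases of Usp18.

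Bst2 (ENSMUSG00000046718, chr8:71534255-71537456, minus strand) encodes tetherin, a membrane protein that holds budding virus particles on the cell surface. It had the largest standard error of the 9 genes, and stood at 6.65, 2.14 and 0.306 FPKM in Ctrl, against 2.30, 0 and 0 FPKM in Gsk3sKO. Gsk3sKO replicate 1 was above Ctrl replicates 2 and 3, and the other Gsk3sKO libraries are listed at 0. The log2 difference was -1.08 (standard error 0.71, 95% interval -2.70 to 0.53, adjusted p = 0.818). It was called without Ctrl replicate 3 (-1.72) and without Gsk3sKO replicate 1 (-1.66), and was -0.80, not called, without Gsk3sKO replicate 2 or 3. Without Ctrl replicate 1 the mean of Bst2 fell under the filter, so it was not tested.

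**Figure D2:**
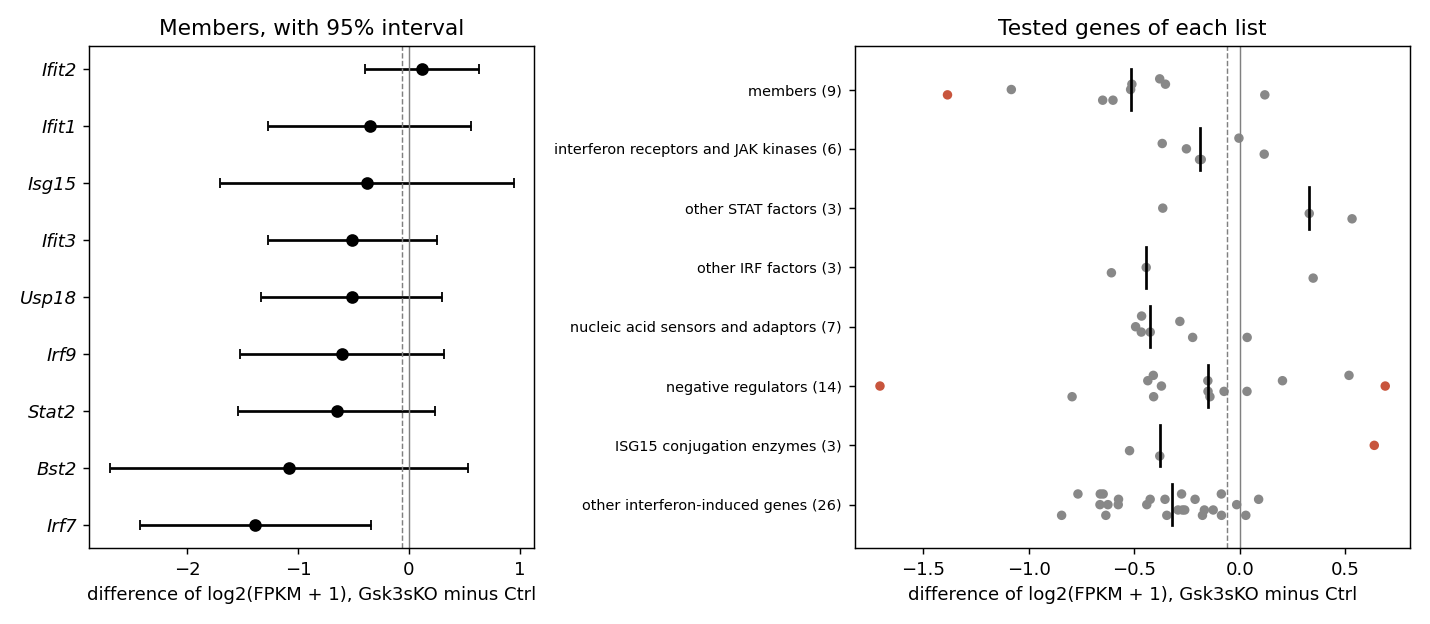
Differences of gene totals between groups on the log2(FPKM + 1) scale (Gsk3sKO minus Ctrl), on the left for each of the 9 genes with its 95% limma interval and on the right as 1 point for each tested gene of every list. Red points have an unadjusted limma p under 0.05, black ticks are list medians, and the dashed line is the median of all gene totals, -0.06. The interval of Irf7 alone lies wholly below 0.

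Of the 29 transcripts of these genes, 25 were above 0 in at least 1 library and 10 averaged at least 1 FPKM. None of the 10 was called in limma (0 at an unadjusted p under 0.05 and 0 after adjustment), against 5.56% of all 21584 transcripts tested. Ifit1, Ifit3, Isg15 and Bst2 are each listed with 1 transcript, so their transcript and gene values are the same. In the other 5 genes the division of the gene total among transcripts changed from library to library, also within a group.

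Stat2 is listed with 2 coding transcripts of 24 exons each. ENSMUST00000105238 was at 2.15, 0.0564 and 3.62 FPKM in Ctrl, against 1.86, 1.58 and 0.413 FPKM in Gsk3sKO, while ENSMUST00000085708 was at 0.702, 3.47 and 0 FPKM in Ctrl, against 1.91, 0 and 0.281 FPKM in Gsk3sKO. In Ctrl replicate 2 the second transcript held 98.4% of the gene total and in Ctrl replicate 3 it held none, although the gene totals of these libraries were 3.53 and 3.62 FPKM. The gene total of Stat2 was therefore steadier between the Ctrl libraries than either transcript, and the log2 differences of the transcripts had standard errors of 0.67 and 0.74, against 0.39 for the gene.

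Irf9 is listed with 6 transcripts, of which 5 were above 0. The coding transcript ENSMUST00000130697 was at 0, 4.02 and 6.08 FPKM in Ctrl, against 6.16, 0 and 0 FPKM in Gsk3sKO. It held between 93.5% and 96.0% of the gene total in each of the 3 libraries where it was found, and the other 3 libraries list it at 0. ENSMUST00000134863, a coding transcript with 10 exons in place of 9, was the highest one where the first was at 0, with 3.21 FPKM in Ctrl replicate 1, 0.935 in Gsk3sKO replicate 2 and 0.747 in Gsk3sKO replicate 3. Usp18 likewise divided between a coding transcript of 11 exons, ENSMUST00000032198, and a retained intron transcript, ENSMUST00000203250. The coding one was at 0.376, 4.14 and 1.69 FPKM in Ctrl, against 0.958, 0.529 and 0.412 FPKM in Gsk3sKO, with a log2 difference of -0.72 (standard error 0.58, adjusted p = 0.890). The retained intron transcript was at 0.833, 0.236 and 2.31 FPKM in Ctrl, against 2.24, 1.76 and 0.672 FPKM in Gsk3sKO, with a log2 difference of 0.33 (standard error 0.54, adjusted p = 0.940). It was the highest Usp18 transcript in all 3 Gsk3sKO libraries and in 1 of the Ctrl libraries, and neither difference was larger than the spread between libraries.

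Irf7 is listed with 11 transcripts, 8 of them above 0, and none averaged 1 FPKM, so none was tested alone. A different transcript was the highest in each Ctrl library. It was the coding ENSMUST00000106023 in replicate 1 (2.12 FPKM), the retained intron ENSMUST00000156938 in replicate 2 (2.10 FPKM) and the retained intron ENSMUST00000127223 in replicate 3 (1.49 FPKM). In Gsk3sKO replicate 1 the highest was a further retained intron transcript, ENSMUST00000127161, at 1.21 FPKM. The lower Irf7 gene total in Gsk3sKO is thus a sum over transcripts that differ between libraries, and no single one was above 0 in every Ctrl library. For Ifit2, ENSMUST00000102826 carried most of the total, at 6.98, 9.03 and 9.14 FPKM in Ctrl, against 8.72, 8.94 and 11.9 FPKM in Gsk3sKO.

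**Figure D3:**
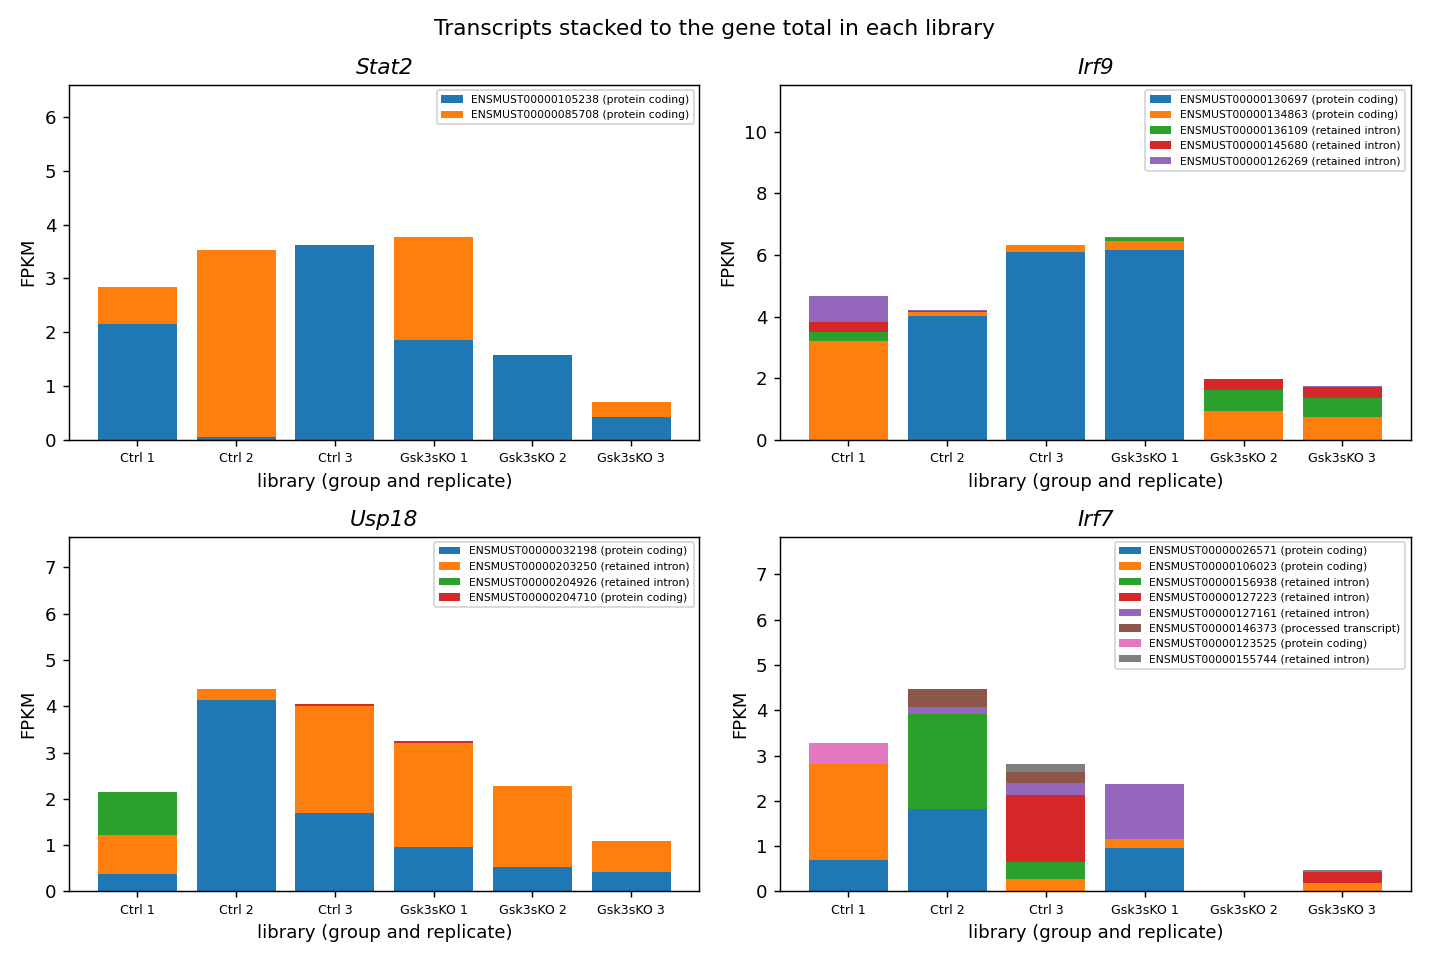
FPKM of each transcript above 0, stacked to the gene total in each of the 6 libraries, for Stat2, Irf9, Usp18 and Irf7. The colour that fills the bar changes between Ctrl libraries, as for Stat2 in Ctrl replicates 2 and 3, and Irf7 has no bar in Gsk3sKO replicate 2.

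Within the Gsk3sKO group the members differed from library to library. After each gene's log2(FPKM + 1) was standardised over the 6 libraries, the mean over the members was 0.31, 0.46 and 0.39 SD for the Ctrl libraries, against 0.44, -1.17 and -0.43 SD for the Gsk3sKO libraries. Gsk3sKO replicate 1 thus stood with the Ctrl libraries, and the negative side was held by the other Gsk3sKO libraries. Gsk3sKO replicate 2 was the lowest library, or tied for it, in 5 of the 9 members, Gsk3sKO replicate 3 in 4, and Ctrl replicate 1 in Ifit2. Over all gene totals tested, Gsk3sKO replicate 2 was lowest in 20.9% and replicate 3 in 29.3%. Pearson's r between members over the 6 libraries had a median of 0.54 over 36 pairs, with 27 positive, and ran from -0.82 for Bst2 and Ifit2 to 0.93 for Irf9 and Stat2. These r are over 6 libraries that differ in depth and in their number of zeros. Without Gsk3sKO replicate 2 the median log2 difference of the members was -0.40, and without Gsk3sKO replicate 1 it was -0.85.

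Other interferon-induced genes were low in the same library. Of the 78 names on a list that holds, among others, guanylate-binding proteins, oligoadenylate synthetases and immunity-related GTPases, 74 were found and 26 gene totals were tested. Gsk3sKO replicate 2 was the lowest library in 17 of these 26 (65.4%), Ctrl replicate 1 in 6 (23.1%) and Gsk3sKO replicate 3 in 2 (7.69%). Over all gene totals tested, these shares were 20.9%, 24.4% and 29.3%. None of the 26 was called in either direction, against 6.56% of all gene totals tested. A negative log2 difference was found in 24, against 58.9% of all, and the median was -0.32, against -0.06. The median r with the mean standardised level of the members was 0.72 over these 26 genes and 0.15 over all 12865 gene totals outside the members. This description covers 6 libraries, and Ifit3b on the list shares sequence with Ifit3. The 5 gene totals with the highest r are on none of the lists used here, being Hist2h4 (a histone, r = 0.991), Tmed10 (a cargo receptor of the secretory pathway, 0.989), Cdipt (phosphatidylinositol synthase, 0.989), Zfp703 (0.988) and Gm23446 (0.987). An r above 0.8 was reached by 10 of the 26 other interferon-induced genes and by 5.71% of all gene totals outside the members.

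**Figure D4:**
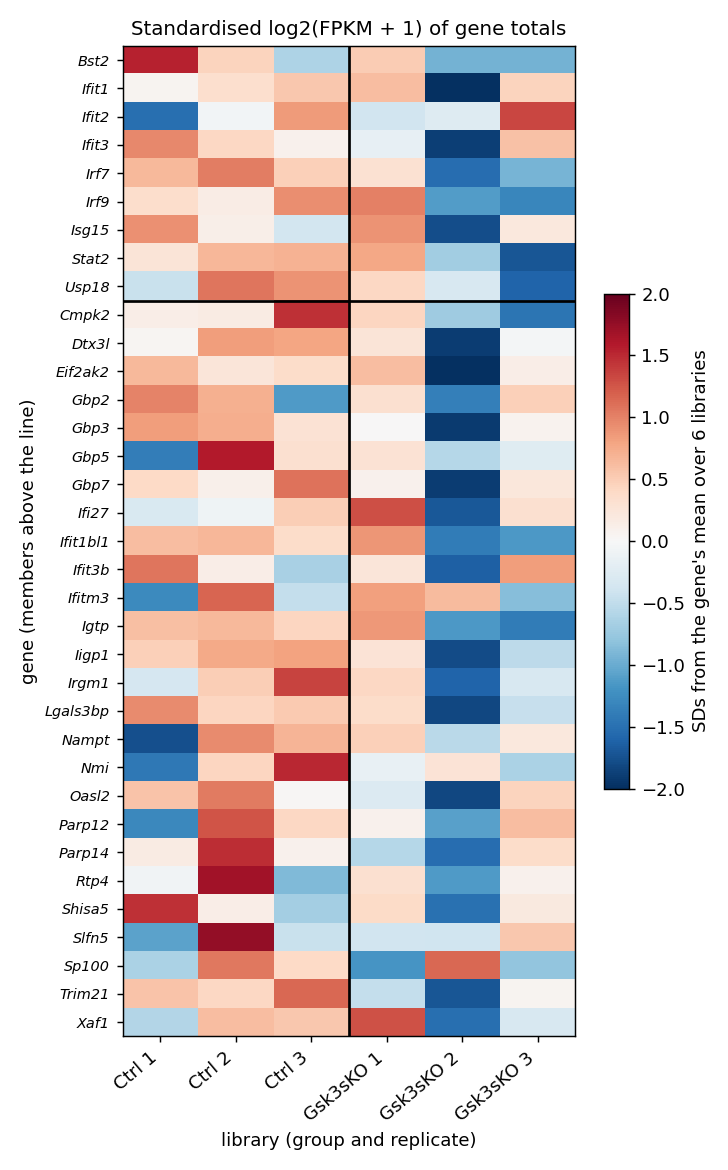
Standardised log2(FPKM + 1) of the 9 genes (above the horizontal line) and of the 26 other tested interferon-induced genes in each library, with Ctrl left and Gsk3sKO right of the vertical line and colour giving SDs from the gene's mean over 6 libraries. The column of Gsk3sKO replicate 2 is the darkest blue, and it is the lowest library in 17 of the 26 genes below the line.

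The interferons themselves were close to absent. Of 21 ligand genes (Ifnb1, the Ifna family, Ifne, Ifnk, Ifnz, Ifng and the lambda genes), 13 were at 0 in all 6 libraries, and the highest average was 0.0488 FPKM, that of Ifnb1, which was listed at 0.293 FPKM in Ctrl replicate 2 and at 0 in the other 5 libraries. No ligand passed the filter. A ligand made by a cell without tagged ribosomes would not be pulled down with them, so these values speak of the precipitated RNA only.

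Of the receptors and JAK kinases, 6 of 9 were tested, none was called in either direction, and the median log2 difference was -0.19. Jak1 averaged 56.5 FPKM, Ifngr2 10.4 and Jak2 10.2, with log2 differences of -0.19, 0.12 and -0.004. Ifnar1, which encodes a chain of the type I receptor, was at 6.87, 7.78 and 8.46 FPKM in Ctrl, against 8.19, 3.61 and 8.12 FPKM in Gsk3sKO, with Gsk3sKO replicate 2 again the lowest. Ifnar2, the other chain, ran from 3.75 to 10.1 FPKM in Ctrl, against 1.96 to 7.10 FPKM in Gsk3sKO. Both receptor chains were thus above every ligand, at levels near those of the members.

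Among 5 other STAT genes 3 were tested and none was called, with a median log2 difference of 0.33. Stat3, which mainly serves cytokines of the interleukin 6 family, was at 7.08, 6.83 and 5.88 FPKM in Ctrl, against 8.54, 7.11 and 10.2 FPKM in Gsk3sKO. Gsk3sKO replicate 2 was little above Ctrl replicate 1, and the log2 difference was 0.33 (standard error 0.20, limma adjusted p = 0.810). Stat5b had a log2 difference of -0.37 and Stat6 one of 0.53. Of the other IRF genes, 3 of 7 were tested and none was called, with log2 differences of -0.44 for Irf2, -0.61 for Irf1 and 0.35 for Irf3, the factor that acts directly downstream of nucleic acid sensors.

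Of the sensors and adaptors that start interferon production, 7 of the 18 found were tested, none was called, and the median log2 difference was -0.42. Tbk1, the kinase on which the sensor pathways converge, was the highest, at 25.3 FPKM on average with a log2 difference of 0.04, followed by Traf3 (-0.47) and Traf6 (-0.28). Negative regulators were tested for 14 of 16 genes, with 1 called lower, 1 called higher and a median of -0.15. Over all gene totals tested, 6.56% were called in either direction. Of this list, Trex1, which encodes a DNA exonuclease, was called lower and Rnaseh2b, which encodes a subunit of RNase H2, was called higher. Both enzymes are known for clearing nucleic acids that can trigger sensors. Trex1 was at 3.26, 4.04 and 0.912 FPKM in Ctrl, against 0, 0.181 and 0 FPKM in Gsk3sKO, with each Gsk3sKO library below every Ctrl library. Of all gene totals tested, 8.30% were likewise lower in Gsk3sKO without overlap. The log2 difference of Trex1 was -1.71 (standard error 0.42, limma adjusted p = 0.511). All 1147 exon bases of Trex1 lie within exons of Atrip on the same strand, so the division of reads between these genes is uncertain. Rnaseh2b was at 2.72, 3.53 and 3.76 FPKM in Ctrl, against 4.21, 6.61 and 7.49 FPKM in Gsk3sKO (0.69, standard error 0.26, limma adjusted p = 0.730). The other subunit genes of RNase H2 had log2 differences of -0.44 (Rnaseh2a) and 0.52 (Rnaseh2c), and neither was called. Adar, Ptpn11 and Pias1, the highest of this list, had log2 differences of -0.15, -0.07 and -0.14.

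The enzymes that attach Isg15 to its targets were tested for 3 of 4 genes, with 1 called higher and a median of -0.38. Of all gene totals tested, 6.56% were called in either direction. Herc6, the main ligase for Isg15 in the mouse, was at 3.93, 6.13 and 3.71 FPKM in Ctrl, against 6.95, 10.1 and 6.04 FPKM in Gsk3sKO. The groups overlapped at Ctrl replicate 2 and Gsk3sKO replicate 3, and the log2 difference was 0.64 (standard error 0.27, limma adjusted p = 0.750). Of its 9292 exon bases, 1269 are shared with the processed transcript Gm45193 on the same strand. Ube2l6, the conjugating enzyme, was at -0.52 and Trim25 at -0.38. Herc6 is itself interferon-induced, and its difference had the opposite sign to that of Isg15 and Usp18, neither of which was called. The sign of the Isg15 difference turned without Gsk3sKO replicate 2 (0.28).

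Markers of other cells moved in part with the groups. Summed markers of microglia were at 59.1 to 81.1 FPKM in Ctrl, against 47.2 to 56.5 FPKM in Gsk3sKO, and 3 of the 9 tested were called lower (C1qa, C1qb and Ctss) and none higher. Markers of plasma and B cells were at 67.5 to 130 FPKM in Ctrl, against 16.7 to 22.3 FPKM in Gsk3sKO, all 5 tested were called lower, and Cd79b and Ms4a1 were at 0 in all libraries. Of the oligodendrocyte markers 4 of 8 were called lower, with summed levels that overlapped (126 to 192 and 136 to 172 FPKM). Astrocyte (181 to 226 and 189 to 235 FPKM), endothelial (20.8 to 82.4 and 26.5 to 69.0 FPKM), pericyte and meningeal (8.81 to 26.8 and 14.3 to 32.8 FPKM) and neuronal markers (2661 to 2745 and 2580 to 2819 FPKM) had 0 called genes in limma and overlapped. Of the 10 markers of T cells and other leukocytes, none was tested, 4 were at 0 throughout, and the sum was 2.74 to 3.37 FPKM in Ctrl, against 1.46 to 2.70 FPKM in Gsk3sKO. The part of microglia and plasma cells in the interferon genes was not tested, and fewer cells of a type cannot be told apart from less RNA per cell in such bulk samples. The microglial sum was 48.2, 47.2 and 56.5 FPKM in Gsk3sKO replicates 1, 2 and 3, so replicate 1, in which the members stood with Ctrl, was low in these markers too.

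For D2 neurons, 4 genes were looked at (Drd2, Adora2a, Penk and Gpr6), and none was called. Their sum ran from 98.5 to 318 FPKM in Ctrl, against 146 to 293 FPKM in Gsk3sKO. Most of it was Penk, at 96.5, 112 and 295 FPKM in Ctrl, against 172, 136 and 281 FPKM in Gsk3sKO. In Ctrl replicate 1, Adora2a was at 0 and Gpr6 at 0.381 FPKM. All 6 libraries are immunoprecipitates, so enrichment of D2 cells over the whole tissue was not tested. Drd2 itself was at 1.58, 6.02 and 14.1 FPKM in Ctrl, against 8.32, 5.96 and 7.28 FPKM in Gsk3sKO, so it was present in all libraries and lowest in Ctrl replicate 1. The targeted gene, Gsk3b, was at 35.6, 53.8 and 56.5 FPKM in Ctrl, against 36.9, 37.0 and 33.6 FPKM in Gsk3sKO. Ctrl replicate 1 lay below Gsk3sKO replicates 1 and 2, so the groups overlapped on this gene total. Its log2 difference was -0.40 (standard error 0.19, limma adjusted p = 0.773). In Neuro2A cells the paper tested the guide RNA by mutations at the target site and by Western blot. In the mPFC it assessed the knockout as protein, in D2Cre/LSL-Flag-Cas9 mice, where most neurons with Flag-Cas9 and the guide RNA lacked GSK3β staining. The RNA level given here does not measure that loss of protein.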

How the data were processed

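RNAseq of RiboTag immunoprecipitates was analysed for 3 Ctrl and 3 Gsk3sKO libraries, grouped by the submitters' titles, and 0 columns of library values were left out. Libraries were made with a stranded total RNA kit. The deposited values are FPKM per transcript and library, and the submitters' processing notes name HISAT2 2.1.0, SAMtools 1.9, StringTie 1.3.4d and the GRCm38 build. Their settings, strand included, were not given in the sources used here. StringTie estimates how reads divide among transcripts and overlapping genes, so single transcripts are less certain than gene totals. The fold, p-value and q-value columns that the authors deposited hold their own comparison and were not used.

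Gene totals and transcripts averaging at least 1 FPKM over 6 libraries were compared between groups by limma (version 3.58.1, R 4.3.3, functions lmFit and eBayes with trend, 2-sided, no covariate) on log2(FPKM + 1), with Benjamini-Hochberg adjustment over everything tested. The fit was tested on simulated gene totals with normal noise. Changes were set only in genes at higher levels than Isg15 and Bst2, so the test does not cover the lowest members. Of the genes given a log2 change of 1, 93.0% had an unadjusted limma p under 0.05. After adjustment 36.0% of them were under 0.05. Exact permutation tests of 3 against 3 libraries cannot give a p below 0.1. The table holds no counts, and depth was inferred from steps between the lowest values, of which only 16.2% to 30.4% lay within 0.02 of a whole read, so depths and reads per FPKM are approximate and no count test was run. Shared stretches of 50 bases were counted between annotated transcripts.

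The members and lists were chosen with earlier results of these data known. Named genes were the members with all library values, called genes of each list (at most the 4 with the largest difference), the 3 highest genes of each list, Gsk3b, near copies of members, and the 5 gene totals most correlated with the members. A gene of these lists is not reported here and was left out of their counts. Ifnar1, Ifnar2 and Ifnb1 were added after their values were seen. Coordinates and exons are from GENCODE M21 and promoters from RefSeq. Alternatives covered the pseudocount (0.1), the filter (none, or 5 FPKM), the scaling of libraries, the variance model, a block for the replicate number and each library left out. Other computing used Python 3.11.15 with matplotlib 3.10.9, numpy 2.4.6 and pandas 2.3.3.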

Additional observations from a re-analysis of the deposited data

How the results depend on the processing

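Over all alternatives no member reached an adjusted p under 0.05 in limma. The number of members called was 0 with a filter of 5 FPKM, which only Ifit2 and Ifit3 pass, 0 without moderated variances, and between 0 and 4 when 1 library was left out (0 without Ctrl replicate 2, 4 without Gsk3sKO replicate 1). Replicate numbers did not pair the libraries (correlations of deviations -0.03, -0.01 and -0.08), and with a replicate block 2 members were called, Irf7 and Bst2. With 1 library left out the log2 difference ran from -0.62 to 0.13 for Ifit1, from -0.041 to 0.26 for Ifit2 and from -0.85 to 0.28 for Isg15, so that the sign turned for Ifit2 without Ctrl replicate 1 (-0.041) or Gsk3sKO replicate 3 (-0.021) and for Ifit1 and Isg15 without Gsk3sKO replicate 2. Of the members' log2 differences under all alternatives, 97 kept their direction and their side of the threshold, 6 passed it anew, 2 no longer passed it (both Irf7) and these 4 turned. Called transcripts numbered 1917 without a filter and 590 with 5 FPKM, and 878 to 1726 with 1 library left out, where gene totals numbered 573 to 1178 and called transcripts of the members 0 to 0. The 3 called genes of the other lists became 10 without a filter, 0 with 5 FPKM, 6 without a variance trend and 1 to 8 with 1 library left out. Of the 844 called gene totals 79.3% were lower in Gsk3sKO, against 62.1% of 809 after scaling each library by its median ratio, when the median of the members was -0.47. With a pseudocount of 0.1 that median was -0.79, and the members with values of 0 moved most, to -2.76 for Irf7, -2.67 for Bst2 and -1.24 for Isg15, with no call gained or lost among the members. The cause of these shifts was not tested. Low FPKM limits the members, most of all Isg15 and Bst2.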
